A study of Mus musculus with 6 samples.

Results

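The genes of Wnt signalling described here are the secreted Wnt ligands, their frizzled receptors and co-receptors, the R-spondins, and the secreted proteins that block the ligands. Members were chosen by symbol alone: every gene starting with Wnt, Fzd, Dkk, Sfrp or Rspo before a digit, plus Frzb, Wif1, Lrp5, Lrp6, Znrf3, Lgr4, Notum and Nkd1, which gave 50 of 19938 genes measured. The rule uses symbols and no measured value, although it was written with earlier results of these data known. The rule also takes in genes outside these classes: Znrf3 is a membrane ubiquitin ligase, Nkd1 is a cytoplasmic protein, and Fzd10os is a transcript from the strand opposite Fzd10 that enters only through its symbol. All 50 were kept, with no filter on low values.

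The final stretch of small bowel, the ileum, was profiled whole on Affymetrix mouse Gene 1.0 ST arrays in 6 mice, with 1 array for each mouse. The 3 control mice carried Villin-CreERT2, a Cre recombinase that tamoxifen activates and that the Villin promoter restricts to intestinal epithelium. The 3 mice labelled GATA6 KO came from crossing Villin-CreERT2 with GATA6 flox/flox mice, so that Cre can delete the zinc finger transcription factor Gata6 in epithelium but not in muscle, connective tissue or nerve. Mice of both groups were given tamoxifen for 5 days when 6 to 8 weeks old, ate chow, and were killed 28 days later at 10 to 12 weeks.

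Wnt ligands are lipid-modified proteins that bind a frizzled receptor together with Lrp5 or Lrp6 and thereby stabilise beta-catenin, which switches on target genes with the TCF and LEF factors. In the small intestine this signal keeps crypt stem cells dividing and matures Paneth cells, and ligands come both from Paneth cells, the source of Wnt3, and from stromal cells under the crypt. R-spondins amplify the signal by removing Znrf3 and Rnf43, the ubiquitin ligases that clear frizzleds from the cell surface. A further arm, driven by Wnt5a, acts through planar polarity and calcium signalling and not through beta-catenin.

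Several features of the arrays bear on what follows. Gata6 rose against its label, from 6.31, 6.33 and 6.50 on the controls to 6.93, 6.81 and 6.86 (log2 signal) on the arrays labelled KO, by 0.49 (SE 0.08, limma adjusted p = 0.0162). No source used here says where its probe set lies relative to the floxed part, so groups are called by their labels. Control replicate 3 read 2.31 for the female transcript Xist, against 7.39 to 7.81 on the other arrays, and 5.30 for the Y-linked Eif2s3y, against 0.27 to 0.61. By these genes control replicate 3 reads as male and every other array as female, so the groups are not matched for sex. Control replicate 1 stood apart in the summed linear signal of 8 colonocyte markers, at 3176.4 against 873.5 and 1052.5 on the other controls and 6865.7, 7473.7 and 7291.6 on the KO-labelled arrays. That list had the highest ratio of group means of the 12 marker lists, at 4.24. Its markers were uneven, with log2 fold changes from 0.03 for Car4 to 4.34 for Car1. The groups did not overlap for 3 of the 8 (37.5%, against 29.3% of all genes). The bright Car1 read 10.96 on control replicate 1, 5.68 and 6.87 on the other controls and 12.14 to 12.20 on the KO-labelled arrays. The number of arrays limits the precision. Array medians lay between 3.33 and 3.44 on the log2 scale, and a gene under the median on every array may not be above background, so the size of its difference is uncertain. Of the 50 members, 26 lay above the median on every array, 16 below it on every array and 8 on both sides.

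Epithelial and ileal markers were present. All 11 general epithelial markers, such as Epcam and Vil1, were above the array medians on every array, and their summed signal spanned 10353 to 11404 on the controls and 10735 to 12044 on the KO-labelled arrays. The summed signal of 8 ileal enterocyte markers was 4460 to 5177 on the controls and 1736 to 2480 on the KO-labelled arrays, and that of 7 Paneth cell markers 5453 to 6484 and 924 to 2059. The sum of 8 crypt stem cell markers was 1183 to 1339 on the controls and 701 to 781 on the KO-labelled arrays, through Olfm4, which read 9.15, 9.24 and 9.41 against 2.66, 2.83 and 3.65. Without Olfm4, left out after its values were seen, the sum was 613 to 712 and 694 to 768, with overlap. A linear sum mostly follows its brightest markers. Of the 8 markers, 4 had positive fold changes, Lgr5 among them, and 4 negative. The negative ones include Axin2 (log2 fold change -1.02, SE 0.15, limma adjusted p = 0.0102) as well as Olfm4. Some lists of cells outside the epithelium lay higher on the KO-labelled arrays: 3954 to 4944 against 3379 to 3859 for 10 smooth muscle markers, and 3067 to 3638 against 2205 to 2889 for 11 fibroblast and subepithelial markers. The 4 mesothelial markers summed to 235 to 276 against 180 to 199, the 3 markers of interstitial cells of Cajal to 137 to 168 against 92.8 to 113, and the 8 enteric neuron and glia markers to 117 to 127 against 99.9 to 111. In that last list the median log2 fold change was 0.08, and 4 markers lay below the array medians on every array. Sums overlapped for 6 endothelial markers (216 to 231 against 195 to 220) and 9 leukocyte markers (377 to 504 against 362 to 419). The part of these lists in the results for Wnt genes was not tested. In whole tissue, a change in the number of cells of a type and a change in RNA per cell cannot be told apart.

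**Figure D1:**
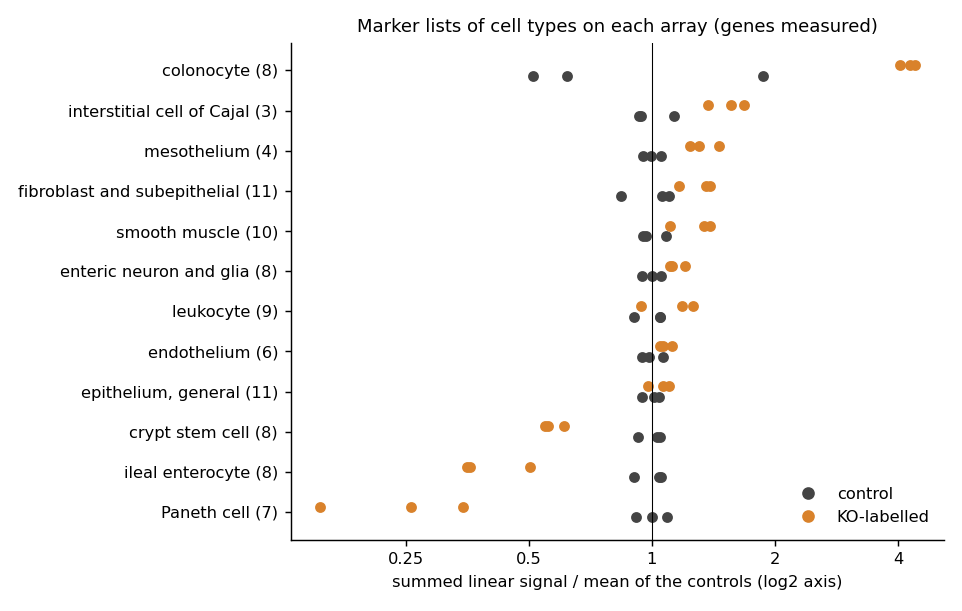
Summed linear signal of each marker list on each array, divided by the mean of the 3 controls, on a log2 axis. Grey points are controls and orange points KO-labelled arrays, and the number of genes measured stands beside each list. Paneth, ileal and, through Olfm4, crypt stem cell lists lie below every control on all 3 KO-labelled arrays. The colonocyte list, followed by the Cajal cell, mesothelial, fibroblast, smooth muscle and enteric neuron lists, lies above every control.

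In the arrays labelled KO, 4 members rose (the receptors Fzd1, Fzd3 and Fzd8 and the ligand Wnt5a) and 2 fell (the receptor Fzd5 and the ligand Wnt3). The other 44 did not pass a limma adjusted p of 0.05, where limma is a linear model with variances moderated over genes and p is adjusted over all 19938. The share called was 12.0% of members against 8.24% of all genes (4.99% higher and 3.25% lower), so the count of members is near the background. The median log2 fold change over all 50 was -0.07, against -0.0043 over all genes, with 20 members above 0 and 30 below. Of all genes, 9761 lay above 0 and 10177 below. The receptors held most of the calls: of 10 frizzleds 3 rose and 1 fell, against 1 and 1 of 19 ligands, none of 4 R-spondins and none of 11 secreted inhibitors. At an unadjusted p under 0.05 there were 18 members, 10 higher and 8 lower, where 24.7% of all genes reached it (14.4% higher and 10.3% lower). Fzd3, Fzd5 and Fzd8 kept their calls whichever of the 6 arrays was dropped. The count of higher members fell to 2 without control replicate 3 or without KO-labelled replicate 1, 2 or 3, and that of lower members to 1 without any array but control replicate 2, when it was 3. Calls over all genes fell in the same fits, from 995 higher and 648 lower to 393 and 286 without control replicate 3, and to 567 and 306, 320 and 277, and 397 and 329 without KO-labelled replicates 1, 2 and 3.

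**Figure D2:**
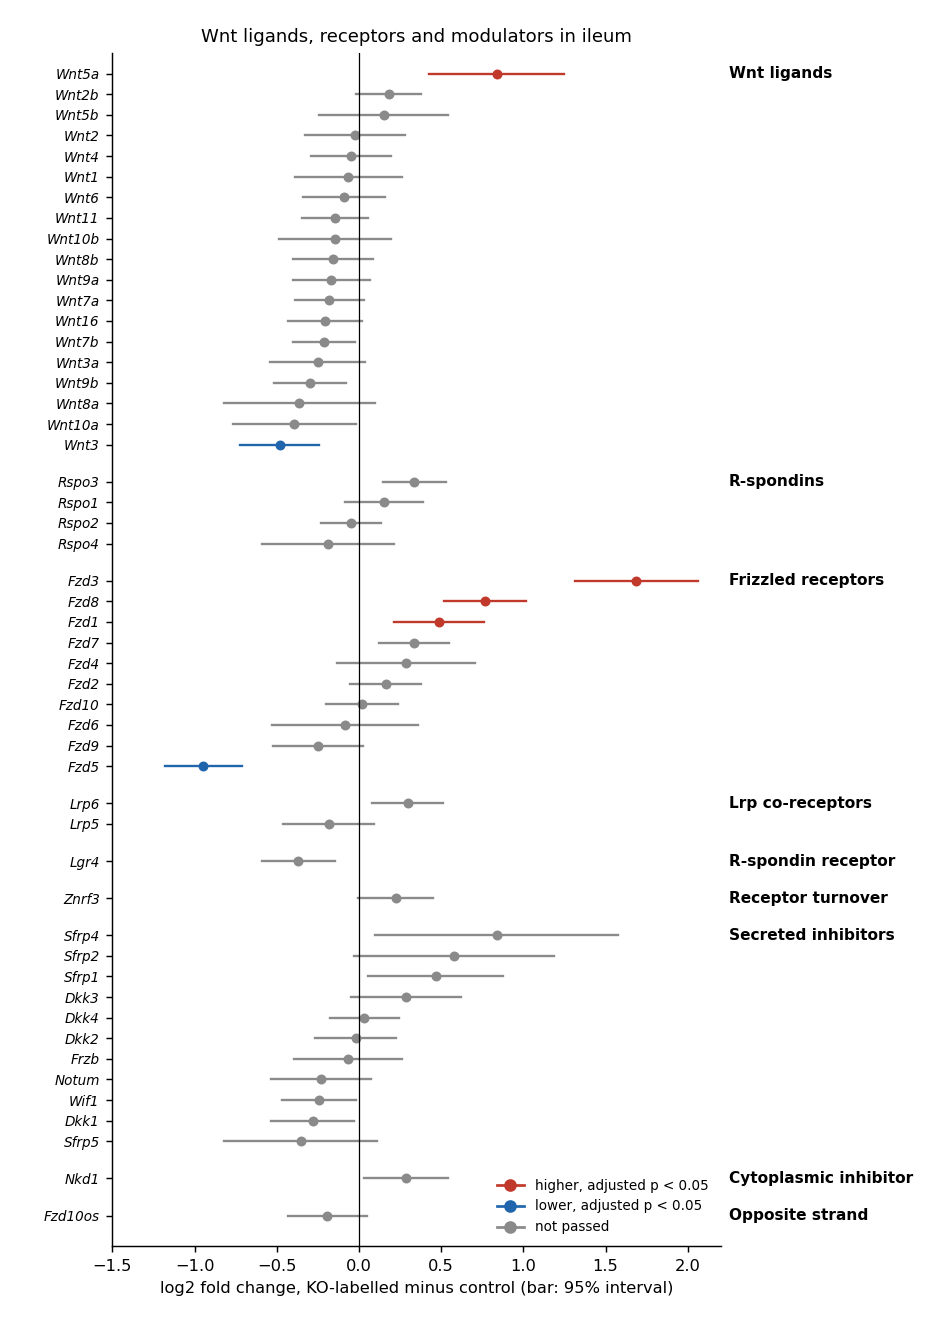
Log2 fold change of all 50 members, KO-labelled minus control, grouped by role, with the 95% interval of the limma fit as a bar. Red and blue mark the 4 members that rose and the 2 that fell, and grey those that did not pass. Fzd3, at 1.69, lies furthest to the right and Fzd5, at -0.95, furthest to the left.

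The upstream sequences of members were searched for 2 kinds of letters: Gata6 binds GATA letters, and the pathway's own factors bind TCF and LEF letters. RefSeq promoter entries (build GRCm38.p6) were matched by symbol to 31 of the 50 members, 34 windows in all, and the 250 bases before the start were searched on both strands. GATA letters (AGATAA or TGATAA) occurred in 4 of the 34 windows (11.8%) and in 16.6% of all 32851 promoters. TCF and LEF letters (CTTTGAA or CTTTGAT or CTTTGTA or CTTTGTT) also occurred in 4 windows (11.8%), against 14.8% of all promoters. A match is a description of letters and not a bound site. Called members with an entry are shown 5′ to 3′ on the gene's strand with matches in capitals, at chr5:4758217-4758466 (minus strand) for Fzd1, chr1:64737751-64738000 (minus strand) for Fzd5 and chr11:103773925-103774174 (plus strand) for Wnt3. The window of Fzd1 holds AGATAA from position -186 and its reverse complement from -134, counted from the start. Those of Fzd5 and Wnt3 hold none of the letters searched. The called members Fzd3, Fzd8 and Wnt5a had no entry. A link between these letters and the direction of change was not tested.
Fzd1: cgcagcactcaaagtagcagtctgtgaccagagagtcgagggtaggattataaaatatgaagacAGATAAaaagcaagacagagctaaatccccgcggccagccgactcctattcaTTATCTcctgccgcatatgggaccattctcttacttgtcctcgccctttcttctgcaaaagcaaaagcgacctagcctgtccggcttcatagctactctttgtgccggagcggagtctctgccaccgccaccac
Fzd5: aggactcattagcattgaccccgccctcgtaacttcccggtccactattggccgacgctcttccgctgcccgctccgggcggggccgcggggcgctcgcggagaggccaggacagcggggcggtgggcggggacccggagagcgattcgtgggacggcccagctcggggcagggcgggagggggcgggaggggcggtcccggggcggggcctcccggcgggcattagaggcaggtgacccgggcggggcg
Wnt3: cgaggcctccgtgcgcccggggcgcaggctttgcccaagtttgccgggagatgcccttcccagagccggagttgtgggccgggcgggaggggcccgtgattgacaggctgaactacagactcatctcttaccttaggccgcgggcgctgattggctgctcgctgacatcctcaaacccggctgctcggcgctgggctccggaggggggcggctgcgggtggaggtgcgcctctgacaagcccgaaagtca

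Among the receptors, Fzd5 was the member that fell. Fzd5, the frizzled that Paneth cells need to mature, read 6.28, 6.22 and 6.37 on the 3 controls and 5.18, 5.34 and 5.50 on the KO-labelled arrays (probe set 10355152). Every KO-labelled array lay well below every control, and all 6 values stood above the array medians. Log2 signal changed by -0.95 (SE 0.10, 3 mice per group), a 1.93-fold decrease, with a limma adjusted p of 0.00248 that ranged from 0.00637 to 0.0199 when 1 array was left out. Beside it, 6 of 7 Paneth cell markers fell, among them the lysozyme Lyz1 by 2.02 (SE 0.32) and the phospholipase Pla2g2a by 2.65 (SE 0.23) on the log2 scale. The remaining Paneth marker, Nupr1, differed by 0.59 log2 units (SE 0.15, limma adjusted p = 0.0637). Their part in the value of Fzd5 was not tested.

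Fzd3, a receptor known for planar polarity and axon guidance, showed the largest difference of any member. Its log2 signal was 3.09, 3.16 and 2.62 on the controls and 4.80, 4.67 and 4.46 on the KO-labelled arrays (probe set 10420846). All controls lay below the array medians and all KO-labelled arrays above them, so the control level is uncertain and with it the size of the rise. The difference was 1.69 log2 units (SE 0.16, 3 mice per group), 3.22-fold, with a limma adjusted p of 0.00166 (0.00696 to 0.0161 with 1 array left out).

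Fzd8, a receptor that binds Wnts of the beta-catenin arm, read 5.05, 5.03 and 4.74 on the controls and 5.63, 5.69 and 5.80 on the KO-labelled arrays (probe set 10453738). The groups did not overlap, and control replicate 3 was the lowest array. The rise of 0.76 log2 units (SE 0.11, 3 mice per group), 1.70-fold, had a limma adjusted p of 0.00752, and 0.0179 to 0.0418 with 1 array left out. Fzd1 read 5.68, 5.76 and 5.44 on the controls and 6.05, 6.28 and 6.01 on the KO-labelled arrays (probe set 10527936), again without overlap. Its log2 fold change of 0.48 (SE 0.12), 1.40-fold, passed narrowly with a limma adjusted p of 0.0481. That call was lost without control replicate 1 (0.103), 2 (0.0551) or 3 (0.133), and without KO-labelled replicate 1 (0.107), 2 (0.157) or 3 (0.0931).

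Fzd7, the main frizzled of Lgr5-expressing stem cells and a close relative of Fzd1 and Fzd2, did not pass. It read 5.11, 5.16 and 5.08 on the controls and 5.33, 5.42 and 5.60 on the KO-labelled arrays, which lay above every control. The log2 fold change was 0.33 (SE 0.09, 95% interval 0.12 to 0.55, limma adjusted p = 0.0700), and it passed with each array centred on its median (0.0479) or with dim genes left out (0.0431). It did not pass with any 1 array left out (0.0758 to 0.187). The other 5 frizzleds had log2 fold changes from -0.25 for Fzd9 to 0.28 for Fzd4, with overlapping groups and limma adjusted p of 0.243 to 0.928. Fzd4 and Fzd6 were set apart by control replicate 1, which read 5.04 for Fzd4 against 4.40 and 4.42 on the other controls, and 5.00 for Fzd6 against 4.23 and 4.46. Fzd10 lay below the medians on every array, and so did Fzd10os (log2 fold change -0.19, SE 0.10).

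**Figure D3:**
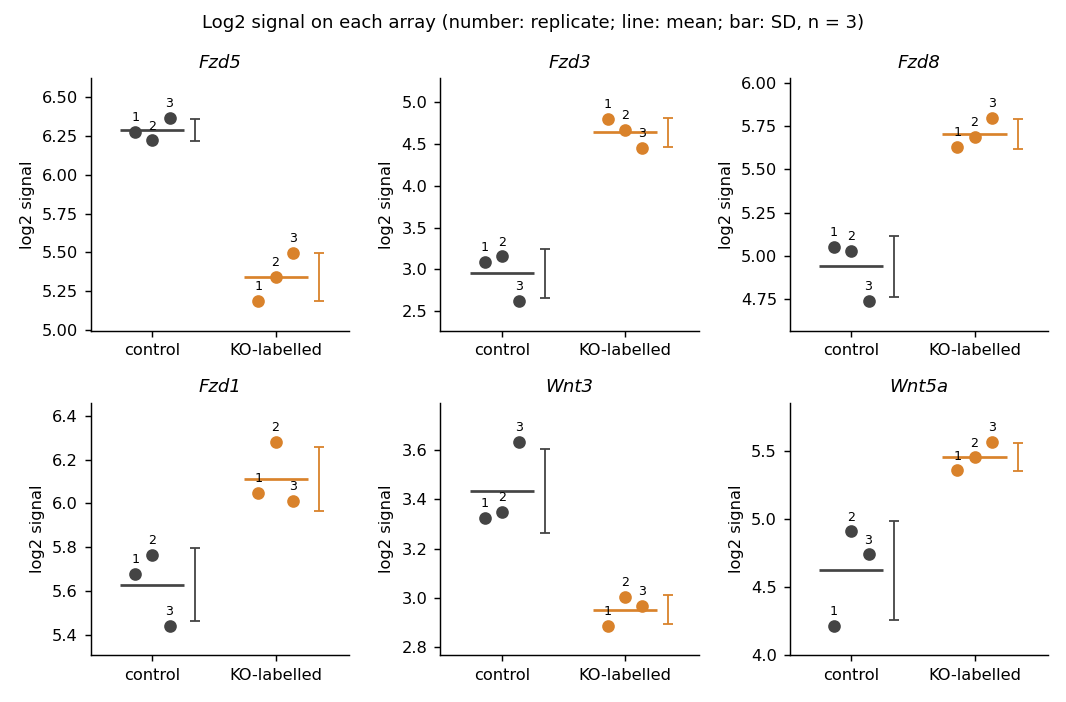
Log2 signal of the 6 called members on each array, with numbers for the replicate, a line for the group mean and a bar for the SD (n = 3); each panel has its own scale, which does not start at 0. In all 6 panels the control and KO-labelled arrays do not overlap. The controls of Wnt5a are the most spread, from 4.22 to 4.91.

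The co-receptors and the surface machinery around the frizzleds did not pass. Lrp6 read 6.44, 6.45 and 6.30 on the controls and 6.56, 6.80 and 6.71 on the KO-labelled arrays, without overlap (log2 fold change 0.30, SE 0.09, limma adjusted p = 0.102). Lrp5 read 6.09, 5.84 and 6.26 against 5.92, 5.79 and 5.92, with overlap (log2 fold change -0.18, SE 0.12, limma adjusted p = 0.383). Lgr4, the R-spondin receptor found widely in gut epithelium, read 7.47, 7.49 and 7.63 on the controls and 7.30, 7.05 and 7.13 on the KO-labelled arrays. The groups did not overlap, but its log2 fold change of -0.37 (SE 0.09, 95% interval -0.59 to -0.15) missed the threshold with a limma adjusted p of 0.0581. It passed with dim genes left out (0.0344), with array weights (0.0403) and with an intensity trend and robust variances (0.0312). It did not pass with any 1 array left out (0.0607 to 0.186). Znrf3 stood between 3.74 and 4.0 on the controls and at 4.17, 3.97 and 4.12 on the KO-labelled arrays, which overlapped (0.22 log2 units, SE 0.10, limma adjusted p = 0.212).

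Of the ligands, 16 of 19 had a log2 fold change below 0 and 3 above it, and 1 passed in each direction. Among all 19938 genes, 10177 were below 0. Small negative values depend on scaling, since array medians were 3.33 to 3.38 on the KO-labelled arrays and 3.41 to 3.44 on the controls. With each array centred on its median, the 50 members split 24 above 0 and 26 below, against 20 and 30 as deposited. Whether the split is particular to ligands was not tested. Of the 19 ligands, 7 lay below the array medians on every array, so the direction of their small differences is uncertain. Wnt3, the ligand made by Paneth cells, read 3.32, 3.35 and 3.63 on the controls and 2.89, 3.00 and 2.97 on the KO-labelled arrays (probe set 10381738). Only control replicate 3 exceeded its array's median, so the level of Wnt3 was not shown to be above background and the size of its decrease is uncertain. The groups did not overlap, and the difference was -0.48 log2 units (SE 0.10, 3 mice per group), 1.40-fold lower, with a limma adjusted p of 0.0331. The call was lost without control replicate 1 (0.0516), 2 (0.0517) or 3 (0.0709), and without KO-labelled replicate 1 (0.104), 2 (0.103) or 3 (0.0982).

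The other epithelial ligands, Wnt6, Wnt9b and Wnt11, did not pass. Neither did Wnt7b, Wnt8a and Wnt10a, whose cells of origin were not examined. Wnt9b read 3.48, 3.29 and 3.43 on the controls and 2.97, 3.17 and 3.16 on the KO-labelled arrays, without overlap (log2 fold change -0.30, SE 0.09, limma adjusted p = 0.104). It exceeded the array median only on control replicate 1. Wnt6 read 3.72, 3.61 and 3.95 against 3.68, 3.75 and 3.58 (log2 fold change -0.09, SE 0.11, 95% interval -0.34 to 0.16). Wnt11 read 3.58, 3.46 and 3.41 against 3.24, 3.35 and 3.43 (log2 fold change -0.14, SE 0.09, 95% interval -0.35 to 0.06). In both genes the groups overlapped. Wnt7b, whose 6 values from 3.05 to 3.41 were all below the array medians, differed by -0.21 log2 units (SE 0.08, limma adjusted p = 0.156). Wnt10a, at 4.09, 3.50 and 4.03 on the controls and 3.38, 3.47 and 3.59 on the KO-labelled arrays, overlapped through control replicate 2 (log2 fold change -0.39, SE 0.16, limma adjusted p = 0.186). Without that array it passed (0.0268), as did Wnt8a (0.0452), whose log2 fold change was -0.36 (SE 0.20) with all arrays. Wnt8a lay below the medians on every array, so the size of its difference is uncertain.

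Among ligands of the stroma, Wnt5a rose. Wnt5a, the main ligand of the arm that does not use beta-catenin, read 4.22, 4.91 and 4.74 on the controls and 5.36, 5.46 and 5.57 on the KO-labelled arrays (probe set 10413482). Control replicate 1 was the lowest, and no KO-labelled array reached down to a control. The difference was 0.84 log2 units (SE 0.17, 3 mice per group), 1.79-fold, with a limma adjusted p of 0.0312. It was lost without control replicate 3 (0.0867) and without KO-labelled replicate 1 (0.0840), 2 (0.116) or 3 (0.106), and with control replicate 1 left out the fold change was 0.64 (adjusted p = 0.0266). Fibroblast and subepithelial markers lay higher on the same arrays: 2 of 11 rose, Pdpn by 0.94 (SE 0.22) and the BMP antagonist Grem1 by 0.60 (SE 0.07), with a median log2 fold change of 0.41 for the list, while Foxl1, a marker of subepithelial telocytes, stood at -0.12 (SE 0.11). Their part in the value of Wnt5a was not tested.

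The other stromal ligands did not pass. Wnt2b, which supports crypts from the stroma, read 5.38, 5.26 and 5.19 on the controls and 5.37, 5.50 and 5.49 on the KO-labelled arrays (log2 fold change 0.18, SE 0.08, limma adjusted p = 0.238). Wnt5b read 4.08, 3.68 and 4.28 against 4.36, 3.99 and 4.14 (log2 fold change 0.15, SE 0.17). Wnt4 read 4.48, 4.52 and 4.27 against 4.52, 4.32 and 4.29 (-0.05, SE 0.10). Groups overlapped for all 3 genes, with 95% intervals of -0.02 to 0.38 for Wnt2b, -0.24 to 0.54 for Wnt5b and -0.29 to 0.19 for Wnt4. A second and dimmer Wnt4 probe set (mean 3.69) gave -0.21 (SE 0.12). The ligands not named so far, Wnt1, Wnt2, Wnt3a, Wnt7a, Wnt8b, Wnt9a, Wnt10b and Wnt16, had log2 fold changes from -0.25 for Wnt3a to -0.02 for Wnt2, and limma adjusted p from 0.238 for Wnt16 to 0.940 for Wnt2.

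No R-spondin passed in the limma fit, with 1 of 4, Rspo3, at an unadjusted p under 0.05. Rspo3, an R-spondin that intestinal stroma supplies to the crypt, read 3.86, 3.76 and 3.96 on the controls and 4.18, 4.25 and 4.15 on the KO-labelled arrays. The groups did not overlap, and its log2 fold change of 0.34 (SE 0.08, 95% interval 0.14 to 0.53) had a limma adjusted p of 0.0513. It passed with each array centred on its median (0.0234), with quantile normalization (0.0484) and with dim genes left out (0.0310). It did not pass with any 1 array left out (0.0765 to 0.170), with the replicate block (0.109) or with an intensity trend and robust variances (0.0611). Rspo1 read 4.07, 4.34 and 4.15 against 4.30, 4.25 and 4.46 (log2 fold change 0.15, SE 0.10), and its groups overlapped. Rspo2, at 2.15 to 2.31 over the 6 arrays, and Rspo4, at 1.63 to 2.30, were below the medians on every array.

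**Figure D4:**
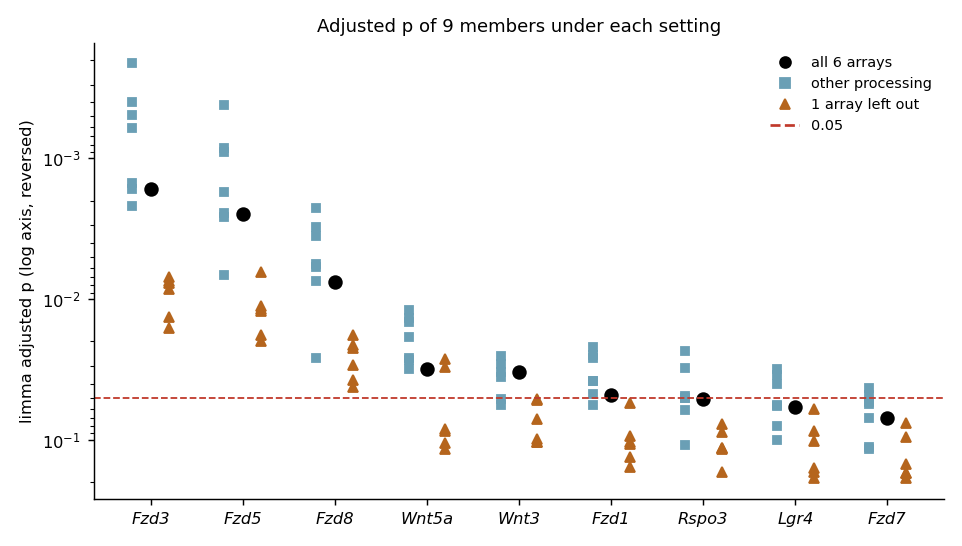
Limma adjusted p, on a reversed log axis, of the 6 called members and the 3 that came closest to the threshold of 0.05 (dashed). Black points use all 6 arrays, blue squares another processing of them and brown triangles 1 array left out. Fzd3, Fzd5 and Fzd8 stay above the dashed line in all settings drawn, and Fzd1 and Wnt3 fall below it with any array left out. Fzd3 met the filter on dim genes only through its KO-labelled arrays, so that setting is no check of its call.

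None of the 11 secreted inhibitors passed in the limma fit, and 4 had an unadjusted p under 0.05, 2 higher and 2 lower. The frizzled-like proteins Sfrp1, Sfrp2 and Sfrp4, which bind Wnts outside the cell and come mainly from stroma, had positive fold changes and wide spread. Sfrp1 read 4.34, 4.82 and 4.66 on the controls and 4.77, 5.35 and 5.10 on the KO-labelled arrays (log2 fold change 0.47, SE 0.17, limma adjusted p = 0.157). Sfrp4 read 3.47, 2.36 and 2.32 against 3.70, 3.74 and 3.21 (log2 fold change 0.84, SE 0.31, limma adjusted p = 0.159). Control replicate 1 alone made the groups of Sfrp4 overlap, and without it the fold change was 1.21 and the adjusted p 0.0185. Control replicates 2 and 3 and KO-labelled replicate 3 lay below their array medians for Sfrp4, so the size of that difference is uncertain. Sfrp2, whose KO-labelled arrays ran from 3.88 to 4.86, differed by 0.58 log2 units (SE 0.26, limma adjusted p = 0.223).

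The remaining inhibitors were mostly dim. Wif1, which sequesters Wnts, read 3.05, 2.84 and 2.82 on the controls and 2.76, 2.67 and 2.56 on the KO-labelled arrays (log2 fold change -0.24, SE 0.10, limma adjusted p = 0.176). Dkk1, which blocks Lrp5 and Lrp6, read 3.43, 3.37 and 3.70 against 3.13, 3.33 and 3.19 (log2 fold change -0.28, SE 0.11, limma adjusted p = 0.167). Both separated the groups without passing, and Wif1 lay below the medians on every array. Notum, which strips the lipid from Wnts, was also below the medians throughout, at 2.76 to 3.07 on the controls and 2.44 to 2.84 on the KO-labelled arrays (log2 fold change -0.23, SE 0.13). Frzb and Sfrp5, further Wnt binders of the Sfrp family, overlapped between the groups. Frzb stood at 2.85 to 3.30 on the controls and 2.98 to 3.23 on the KO-labelled arrays (log2 fold change -0.07, SE 0.14). Sfrp5 stood at 2.32 to 2.79 and 1.75 to 2.42 (log2 fold change -0.35, SE 0.20). Dkk3, a divergent family member, read 5.89, 5.72 and 5.43 on the controls and 6.15, 5.79 and 5.97 on the KO-labelled arrays (log2 fold change 0.29, SE 0.14, limma adjusted p = 0.262). Dkk2, at 3.65 to 3.97 over all arrays, differed by -0.02 (SE 0.10), and Dkk4, below the medians on every array, by 0.03 (SE 0.09). Nkd1, a cytoplasmic brake that binds dishevelled and is itself a Wnt target, read 4.86, 5.09 and 5.01 against 5.10, 5.41 and 5.33. Its groups did not overlap, and the log2 fold change of 0.29 (SE 0.11) had a limma adjusted p of 0.159.

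Seen by group separation alone, 17 of the 50 members (34.0%) did not overlap between the groups, against 29.3% of all genes: 8 lay higher on the KO-labelled arrays, where 16.8% of all genes did, and 9 lower, where 12.6% did. Both shares of members are near those of all genes. Between replicates the members varied to a like degree in both groups, with a median SD of 0.15 on the controls and 0.13 on the KO-labelled arrays. The most variable was Sfrp4 on the controls, at an SD of 0.65, and Sfrp2 on the KO-labelled arrays, at 0.50.

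Downstream and beside these members, 96 of 100 other genes on lists of the pathway were measured, and 8 rose, 2 fell and 86 did not pass, or 10.4% called against the 8.24% of all genes. Their median log2 fold change was 0.04. Of 5 genes of ligand release 2 rose. Wls, the carrier that brings Wnts to the cell surface, read 6.19, 6.38 and 6.09 on the controls and 6.87, 6.75 and 6.78 on the KO-labelled arrays, a rise of 0.58 log2 units (SE 0.10) with a limma adjusted p of 0.0144. Its call was lost without control replicate 3 (0.0529) and without KO-labelled replicate 1 (0.0577), 2 (0.0573) or 3 (0.0565). The proteoglycan Gpc3, also higher by 0.57 (SE 0.12, limma adjusted p = 0.0331), kept its call without KO-labelled replicate 1 (0.0242) and lost it without control replicate 1 (0.0683), 2 (0.0773) or 3 (0.103) or KO-labelled replicate 2 (0.120) or 3 (0.110). Porcn, which attaches the lipid to Wnts, stood at 0.04 (SE 0.10).

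Of 15 further co-receptors and turnover genes, the tetraspanin Tspan12, which assists Fzd4, was the gene that rose. It read 7.19, 7.12 and 6.79 on the controls and 7.92, 7.71 and 7.80 on the KO-labelled arrays, a rise of 0.78 log2 units (SE 0.12, limma adjusted p = 0.0111), which was lost without KO-labelled replicate 1 (0.0504). The stem cell receptor Lgr5 read 5.22, 5.26 and 5.29 against 5.53, 5.43 and 5.59 (log2 fold change 0.26, SE 0.08, limma adjusted p = 0.0854). Rnf43 stood between 5.29 and 5.34 on every array, with a log2 fold change of 0.01 (SE 0.07, 95% interval -0.15 to 0.17).

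In the planar polarity and calcium arm 3 of 24 genes rose and none fell. That is 12.5% called against 8.24% of all genes (4.99% higher), so the count is near the background. Vangl1, a core polarity protein, read 4.23, 4.08 and 4.19 on the controls and 4.72, 4.74 and 4.69 on the KO-labelled arrays, a rise of 0.55 log2 units (SE 0.08, limma adjusted p = 0.00682) that passed with any array left out (0.0172 to 0.0409). The polarity cadherin Celsr1, higher by 0.53 (SE 0.12, limma adjusted p = 0.0422), lost its call without control replicate 1 (0.0511), 2 (0.0664) or 3 (0.111) and without KO-labelled replicate 1 (0.129), 2 (0.0835) or 3 (0.132). The phospholipase Plcb4, higher by 0.59 (SE 0.14, limma adjusted p = 0.0413), kept it without KO-labelled replicate 1 (0.0141) and lost it without control replicate 1 (0.117), 2 (0.0685) or 3 (0.135) or KO-labelled replicate 2 (0.153) or 3 (0.125).

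In the beta-catenin arm 1 of 35 genes passed (2.86%, against 8.24% of all genes), the feedback inhibitor and target Axin2. Axin2 read 5.39, 5.86 and 5.79 on the controls and 4.45, 4.65 and 4.86 on the KO-labelled arrays. Its groups did not overlap (log2 fold change -1.02, SE 0.15), and the limma adjusted p of 0.0102 rose past the threshold without control replicate 3 (0.0535) or KO-labelled replicate 2 (0.0548). Ctnnb1, which encodes beta-catenin, read 9.18, 9.49 and 9.42 against 9.51, 9.57 and 9.62 (log2 fold change 0.20, SE 0.10, limma adjusted p = 0.258). Of 21 Wnt target genes of the intestine 2 fell, Axin2 and Mmp7, and 2 rose, Cd44 and Sox9 (19% called). Mmp7 is also a Paneth cell gene. Its log2 fold change was -2.65 (SE 0.15, limma adjusted p = 0.000336), and it passed with any array left out (0.00112 to 0.00505). The adhesion receptor Cd44 read 6.09, 5.82 and 5.86 on the controls and 6.74, 6.77 and 6.93 on the KO-labelled arrays, and the crypt factor Sox9 read 5.71, 5.63 and 5.73 against 6.31, 6.11 and 6.34. They rose by 0.89 (SE 0.10) for Cd44 and 0.56 (SE 0.09) for Sox9. With any array left out Cd44 passed (0.00618 to 0.0229), while Sox9 lost its call without KO-labelled replicate 1 (0.050) or 3 (0.054).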

How the data were processed

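RNA of whole ileum from 3 control and 3 KO-labelled mice was measured on 1 array each. Log2 signals were deposited by the authors for each probe set. The submitters' processing notes name Affymetrix Expression Console; the sources used here do not give its version or how background, normalization and summary were handled, and base 2 was read from the span of the values. Of 35557 probe sets, 21789 have 1 gene symbol in the platform annotation, 1621 have several and 12147 are not listed; only the first kind was used. The brightest probe set by mean over the 6 arrays stood for each gene, which left 19938 genes. All were fitted with limma 3.58.1 in R 4.3.3 (lmFit, eBayes, two-sided, Benjamini-Hochberg over all genes, threshold 0.05), and the fit was tested on simulated data. Fold changes are KO-labelled minus control. The members and lists were chosen with earlier results of these data known. Values on each array are given for members with an unadjusted p under 0.05 and for those with a textbook place in the crypt or its stroma; Sfrp2, Wnt8a and members at the ends of a range were named after their values were seen. Marker lists were summed as linear signal. Alternatives covered scaling, a filter on dim genes, the mean over probe sets, moderation, array weights, a replicate block and leaving out arrays. Levels of different genes are not comparable, since each probe set has its own scale. Figures were drawn with matplotlib 3.10.9.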

Additional observations from a re-analysis of the deposited data

How the results depend on the processing

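With all 6 arrays, 4 members were higher, 2 lower and the median log2 fold change was -0.0662. With 1 array left out these ran from 2 to 4, 1 to 3 and -0.128 to -0.0245, and the other pathway genes from 3 to 5 higher (8 with all) and 1 to 2 lower (2 with all). The lower count was 1 with quantile normalization and 1 with the replicate block. The median was -0.00917 with arrays centred on their medians, which moved the median of all genes from -0.0043 to 0.053 and the split of all calls from 995 higher and 648 lower to 1562 and 565, and it was 0.157 over the 30 members above the median of all probe sets. Leaving out control replicates 1 and 3 together, chosen after seeing the data, left 1 control assumed to vary like the KO-labelled arrays: limma called 0 higher and 0 lower members (7 and 2 at an unadjusted p under 0.05), 0 and 0 other pathway genes (14 and 5), and the median was 0.0727; over all genes that fit called 25 higher and 11 lower, so these counts say nothing particular about the members. Of the 6 called members, none turned direction in the 14 alternatives, save that Wnt3 was too dim for the filter and had no value there. Fzd3 met that filter only through its KO-labelled arrays, so the filter is no check of its call. Quantile normalization ended the calls of Fzd1 (adjusted p = 0.0564) and Wnt3 (0.0563). Over all 50 members, 20 had a positive fold change in the reported fit, 24 with centring, 25 with quantile normalization, 18 to 23 with 1 array left out and 28 without control replicates 1 and 3. Among the members followed through every setting (those described array by array and any called in a setting), those that turned, none of them called there, were Dkk2, Rspo2 and Wnt4 with centring (0.038, 0.007 and 0.00867), Dkk2, Frzb and Rspo2 with quantile normalization (0.00667, 0.0203 and 0.0405), Frzb without control replicate 1 (0.0153), Wnt5b without control replicate 2 (-0.0155), Dkk2 and Wnt6 without control replicate 3 (0.0165 and 0.00533), Dkk2 without KO-labelled replicate 3 (0.070; with 1 array left out Dkk2 ran from -0.093 to 0.070, Frzb from -0.213 to 0.0153, Wnt5b from -0.0155 to 0.284 and Wnt6 from -0.168 to 0.00533), and Dkk2, Lrp5, Rspo1, Rspo2, Wnt6 and Wnt8a without control replicates 1 and 3 (0.083, 0.0433, -0.00533, 0.0497, 0.0623 and 0.0913). The cause of these changes was not tested. Equal replicate numbers were not shown to pair the mice: deviations of equally numbered arrays correlated at 0.0425, -0.0403 and 0.153, and not every array correlated best with its own number. With that block, 6 members were higher, Sfrp1 (adjusted p = 0.0352) and Sfrp2 (0.0422) among them, and Wnt3 was not called (0.0512). Signal over background limits the 16 members below the array medians on every array.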
